A study of Mus musculus with 24 samples.

Results

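MC38 is a mouse colon carcinoma line that grows as a tumour in mice, and the libraries described here ask what CHEK2 knock out changed in such tumours whatever the treatment. RNA sequencing had been done on 24 tumour libraries of 2 lines, MC38 and B16 melanoma, and all 12 MC38 libraries were used. They were 3 tumours of CHEK2-knock out cells given PBS and 3 given anti-PD-1, an antibody against the T cell checkpoint receptor PD-1, with 3 tumours of parental CHEK2-WT cells given PBS and 3 given anti-PD-1. These are written KO PBS, KO anti-PD-1, WT PBS and WT anti-PD-1. The labels give no host strain, age or dose, do not say how the gene was knocked out or whether the KO cells were 1 clone, and do not say whether each library came from a separate mouse, so p-values measure the spread between these libraries only. KO and parental cells differ in whatever else separates the 2 cell populations as well as in CHEK2, and the labels do not allow these to be told apart.

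CHK2, the kinase that Chek2 encodes, is switched on by ATM at DNA double strand breaks and phosphorylates p53, Cdc25 phosphatases and BRCA1, which links DNA damage to cell cycle arrest, repair and cell death. In mammalian cells shortage of amino acids, misfolded protein or oxidative stress acts through another route, the integrated stress response, in which kinases phosphorylate eIF2α, translation of most messages falls and the transcription factor ATF4 is made. ATF4 raises genes of amino acid uptake, amino acid synthesis and tRNA charging, many of which carry a composite C/EBP-ATF element upstream of their start.

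Chek2 measured 2.20, 2.40 and 1.92 FPKM in the KO PBS tumours and 3.23, 3.06 and 3.37 FPKM in the KO anti-PD-1 tumours, against 6.14, 5.15 and 4.61 FPKM in the WT PBS tumours and 5.72, 5.59 and 5.01 FPKM in the WT anti-PD-1 tumours. All 6 KO libraries were below all 6 WT libraries, but none was at 0. The log2 difference, KO minus WT with treatment as a covariate, was -0.80 (SE 0.09, limma adjusted p = 9.49e-05), with -0.99 under PBS and -0.61 under anti-PD-1. Which cells or transcripts the remaining reads came from was not tested.

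Values were FPKM (fragments per kilobase of transcript per unit of library size), which sets each gene relative to its transcript length and library size, and differences below are on log2(FPKM + 1), a scale that understates the change of genes near or under 1 FPKM. FPKM summed to 310868 to 339409 per library, and depth, read from the steps between low values, came to about 13200000 to 22500000 reads. Replicates of a group correlated at r = 0.986 to 0.992 over genes. Of 16 colon epithelium markers only 5 passed the filter, which asked for 1 FPKM or more in 3 or more of the 12 libraries, and Cdx2, Fabp1 and Tff3 were listed at 0 in all 12. The second KO anti-PD-1 library and the second WT anti-PD-1 library stood apart in a list of 14 skeletal muscle genes, whose summed level was 639 FPKM in the KO library and 428 FPKM in the WT library, with 3.48 to 167 FPKM in the other 10.

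Of 14209 genes tested, 2035 (14.3%) had all 3 KO libraries above, or all 3 below, the 3 WT libraries in both treatments and in the same direction. They comprised 998 genes that were higher (7.02%) and 1037 that were lower (7.30%) in KO tumours. In 743 of the higher genes all 6 KO libraries exceeded all 6 WT libraries, and in 749 of the lower genes all 6 lay below. Most of these differences were modest. The median absolute log2 difference was 0.375, against 0.15 over all genes tested, and 83 higher and 57 lower genes differed at least 2-fold in FPKM + 1. The fit with treatment as a covariate called 3370 genes (23.7%) at an adjusted p under 0.05, of which 1672 (11.8%) were higher and 1698 (12%) lower. It used the same values as the no overlap count, so the 1956 genes that met both criteria are a description of how the criteria relate, not added support. The remaining 79 genes without overlap were not called, and 1414 called genes overlapped in at least 1 treatment.

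**Figure D1:**
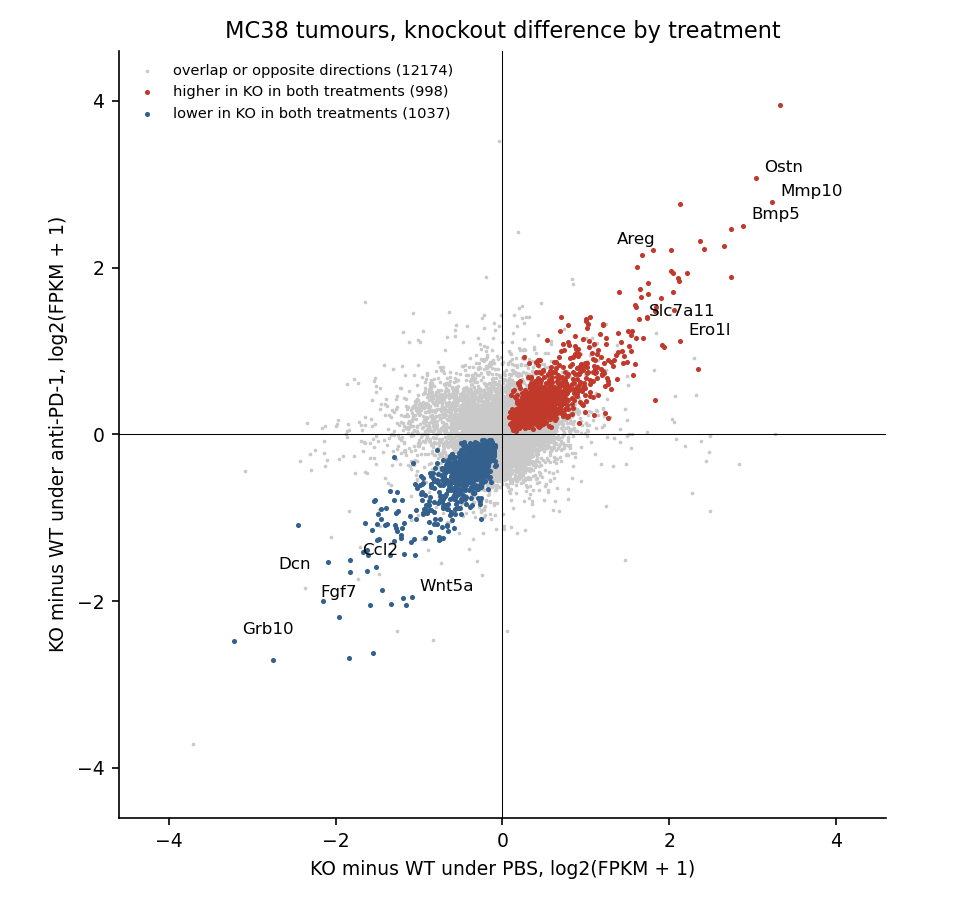
Knockout difference of each of 14209 genes under PBS (horizontal axis) and under anti-PD-1 (vertical axis), in log2(FPKM + 1), for 3 KO and 3 WT libraries per treatment. Red points are the 998 genes higher and blue points the 1037 genes lower in KO tumours without overlap in both treatments; Ostn and Grb10 lie at opposite ends of the diagonal.

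The treatments also held differences that were not shared. Without overlap under PBS were 39.8% of genes, and 34.1% under anti-PD-1. In 365 genes (2.57%) the KO libraries lay wholly on opposite sides of WT in the 2 treatments. Of these, 264 were lower in KO under PBS and higher under anti-PD-1. The genotype by treatment interaction was called for 346 genes (2.44%), of which 12 were among the 2035. That count rests on single libraries: it fell to 48 without the second KO anti-PD-1 library and was 725 without the first KO PBS library, and of the 12 libraries the first KO anti-PD-1 library alone could be left out with less than a 1.5-fold move.

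**Figure D2:**
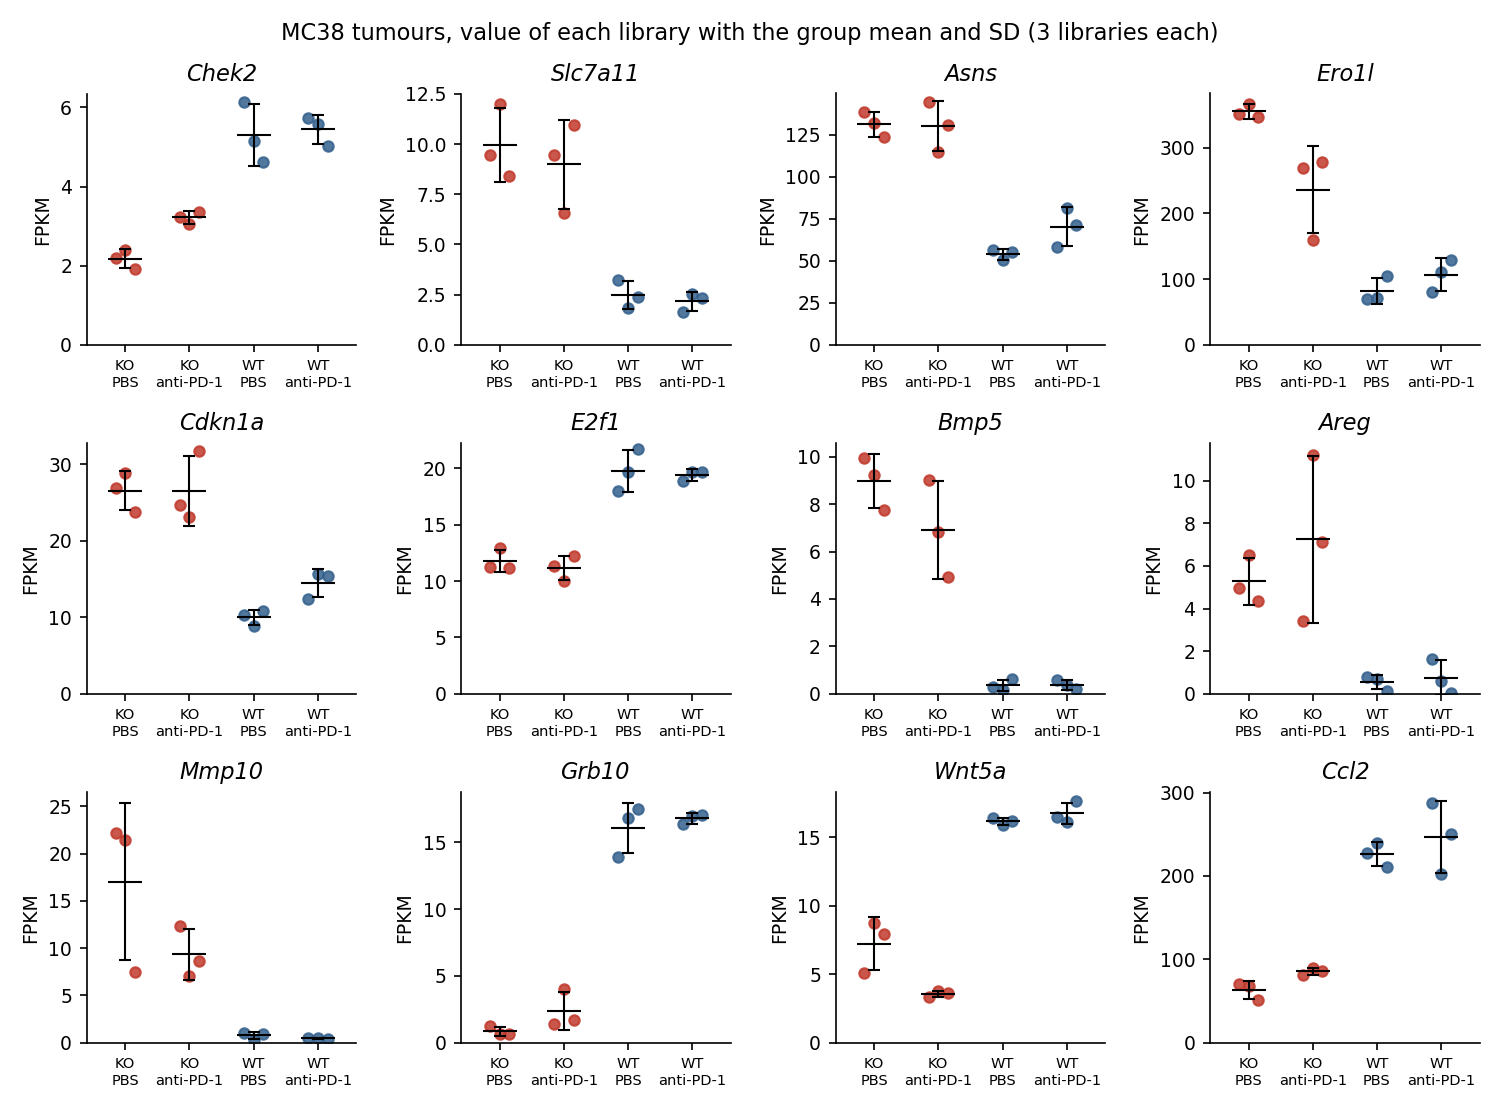
FPKM of 12 genes in each MC38 library, with 3 libraries per group, KO groups in red to the left and WT groups in blue to the right; black bars show the group mean and SD. In each panel the KO points are clear of the WT points of the same treatment.

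Of the lists with at least 8 tested members, the integrated stress response list had the largest share without overlap. Of its 29 members, 23 were higher and called, 16 of them without overlap in both treatments (background 7.02%), and none was lower and called. The median log2 difference over the 29 was 0.58, against -0.0017 over all genes, and it was 0.77 under PBS and 0.39 under anti-PD-1. Leaving out any 1 library gave 22 to 24 called members, all higher. Atf4 itself measured 135 to 207 FPKM in KO tumours and 117 to 193 FPKM in WT tumours, with a log2 difference of 0.07 (SE 0.13, limma adjusted p = 0.73).

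Promoters of 7 members higher without overlap are shown, 5 chosen because they hold the core letters of an element of the ATF4 route and 2, Trib3 and Mthfd2, because they do not. Each sequence is the 250 bases before the gene's annotated start in the RefSeq table for GRCm38.p6, in the gene's direction, 5′ to 3′. Capitals mark TGATGNAA, the core of the C/EBP-ATF element, or its reverse complement TTNCATCA.
Slc7a11 (chr3:50443614-50443863, minus strand): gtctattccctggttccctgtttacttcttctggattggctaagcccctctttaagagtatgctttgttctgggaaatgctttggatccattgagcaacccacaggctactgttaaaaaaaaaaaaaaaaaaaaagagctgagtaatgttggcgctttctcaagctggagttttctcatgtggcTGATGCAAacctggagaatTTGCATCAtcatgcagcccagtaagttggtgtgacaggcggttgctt
Asns (chr6:7693210-7693459, minus strand): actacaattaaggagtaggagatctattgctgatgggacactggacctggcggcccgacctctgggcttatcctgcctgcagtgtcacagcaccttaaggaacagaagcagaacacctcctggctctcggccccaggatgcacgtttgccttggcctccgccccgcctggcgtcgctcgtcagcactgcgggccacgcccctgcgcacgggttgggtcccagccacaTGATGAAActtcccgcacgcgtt
Chac1 (chr2:119350992-119351241, plus strand): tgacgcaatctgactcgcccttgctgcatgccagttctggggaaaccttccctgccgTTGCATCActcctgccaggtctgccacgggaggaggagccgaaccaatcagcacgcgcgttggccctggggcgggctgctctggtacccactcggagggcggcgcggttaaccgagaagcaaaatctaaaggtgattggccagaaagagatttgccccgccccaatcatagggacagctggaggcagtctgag
Gars (chr6:55037751-55038000, plus strand): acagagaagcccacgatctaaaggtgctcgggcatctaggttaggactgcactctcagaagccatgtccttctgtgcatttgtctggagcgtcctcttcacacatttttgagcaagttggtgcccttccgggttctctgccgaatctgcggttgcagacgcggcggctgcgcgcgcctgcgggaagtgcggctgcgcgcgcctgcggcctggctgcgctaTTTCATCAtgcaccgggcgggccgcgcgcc
Tars (chr15:11399659-11399908, minus strand): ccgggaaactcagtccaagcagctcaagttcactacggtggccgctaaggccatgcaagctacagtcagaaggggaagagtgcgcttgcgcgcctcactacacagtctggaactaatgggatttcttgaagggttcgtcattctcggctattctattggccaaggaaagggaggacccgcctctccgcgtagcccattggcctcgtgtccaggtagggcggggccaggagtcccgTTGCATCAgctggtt
Trib3 (chr2:152344061-152344310, minus strand): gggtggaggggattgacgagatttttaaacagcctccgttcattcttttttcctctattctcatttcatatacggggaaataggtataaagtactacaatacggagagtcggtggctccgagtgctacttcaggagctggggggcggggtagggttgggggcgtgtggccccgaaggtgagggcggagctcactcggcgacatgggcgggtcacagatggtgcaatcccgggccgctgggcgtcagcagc
Mthfd2 (chr6:83317605-83317854, minus strand): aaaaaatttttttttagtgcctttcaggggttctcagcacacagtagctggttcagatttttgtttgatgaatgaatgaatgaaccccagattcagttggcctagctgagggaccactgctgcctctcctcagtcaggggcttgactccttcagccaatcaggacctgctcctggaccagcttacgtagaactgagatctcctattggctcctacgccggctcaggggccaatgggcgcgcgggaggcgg

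The Slc7a11 promoter held the 8 letters on both strands, starting 66 and 47 bases before the start. In Asns they began 23 bases before the start, in Gars 30, in Tars 15 and in Chac1 193. Over the whole promoter table the letters were found in 1134 of 32851 entries (3.45%), and in 2.38% of the 9459 genes tested here that had an entry. They were found in 9 of 24 stress response members (37.5%) and in 7 of the 15 higher without overlap that had an entry (46.7%). Besides the 5 shown these were Atf3 and Vldlr, the second in 1 of its 2 entries. The 8 without the letters in this window were Trib3, Mthfd2, Psat1, Sesn2, Slc3a2, Sars, Eprs and Ppp1r15a. Among all genes higher without overlap they were found in 4.28%, and among genes lower without overlap in 2.41%. The stress response list was made of genes of the ATF4 route, many of them known to carry this element. Its share was therefore favoured by the choice and is not added support. A match is a description of these letters and not of binding.

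Members that handle cystine and glutathione included the largest difference of the list, that of Slc7a11. Slc7a11 (cystine-glutamate antiporter) measured 9.47, 12 and 8.42 FPKM in the KO PBS tumours and 9.44, 6.58 and 10.9 FPKM in the KO anti-PD-1 tumours, against 3.21, 1.84 and 2.40 FPKM in the WT PBS tumours and 1.64, 2.51 and 2.35 FPKM in the WT anti-PD-1 tumours. The lowest KO library was above the highest WT library. The log2 difference was 1.65 (SE 0.14, limma adjusted p = 1.54e-05), with 1.66 under PBS and 1.64 under anti-PD-1. Slc3a2, which encodes the heavy chain that partners Slc7a11 and Slc7a5 at the membrane, measured 53.7 to 72.1 FPKM in KO tumours and 36.8 to 51.7 FPKM in WT tumours, a log2 difference of 0.60 (SE 0.10, limma adjusted p = 0.0011). Chac1, an enzyme that degrades glutathione, averaged 28.5 ± 4.51 FPKM in KO tumours and 12.1 ± 2.86 FPKM in WT tumours (SD, n = 6 each). All 6 KO libraries were above all 6 WT libraries and the log2 difference was 1.18 (SE 0.14, limma adjusted p = 1.44e-04).

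Amino acid synthesis followed the same direction. Asns (asparagine synthetase) measured 138, 132 and 123 FPKM in the KO PBS tumours and 144, 115 and 131 FPKM in the KO anti-PD-1 tumours, against 56.2, 50.2 and 55.5 FPKM in the WT PBS tumours and 58.2, 81.5 and 71.1 FPKM in the WT anti-PD-1 tumours. No KO value came near the WT range. The log2 difference was 1.08 (SE 0.10, limma adjusted p = 3.14e-05). Psat1, of the serine synthesis pathway, measured 61.9 to 76.2 FPKM in KO tumours and 37.1 to 54.7 FPKM in WT tumours, and Mthfd2, a mitochondrial enzyme of one-carbon metabolism, measured 45.5 to 58.9 FPKM in KO tumours and 23.1 to 34.6 FPKM in WT tumours. Their log2 differences were 0.59 (SE 0.09, limma adjusted p = 6.51e-04) and 0.91 (SE 0.09, limma adjusted p = 6.76e-05).

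The enzymes that charge tRNA with amino acids formed the broadest group. Sars, Tars, Nars, Gars and Eprs were higher without overlap, with log2 differences of 0.70, 0.63, 0.54, 0.52 and 0.41, all called. Cars, Wars, Iars and Yars were also called higher, at 0.58, 0.58, 0.42 and 0.36, but overlapped WT in at least 1 treatment. Gars, the most abundant of the first 5, measured 127 to 164 FPKM in KO tumours and 94.1 to 121 FPKM in WT tumours. Aars and Mars were not called, at 0.26 and 0.06.

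Feedback and stress outputs of the route were higher too. Trib3, a pseudokinase that restrains ATF4 and AKT, measured 43.6 to 85.2 FPKM in KO tumours and 21.1 to 40.1 FPKM in WT tumours, a log2 difference of 1.01 (SE 0.19, limma adjusted p = 0.0024). Ppp1r15a, which encodes the GADD34 subunit that dephosphorylates eIF2α, differed by 0.87 (SE 0.14, limma adjusted p = 0.001). Sesn2, an inhibitor of mTORC1, differed by 0.78 (SE 0.11, limma adjusted p = 5.15e-04). Vldlr, a lipoprotein receptor, had the second largest difference of the list at 1.40 (SE 0.15, limma adjusted p = 8.54e-05). Ddit3, which encodes the death-associated factor CHOP, was called at 0.70 but its KO and WT ranges overlapped under anti-PD-1. Fgf21, a secreted hormone that ATF4 is known to raise, was under 1 FPKM in WT. Fgf21 measured 2.68, 2.65 and 4.36 FPKM in the KO PBS tumours and 2.17, 0.794 and 2.70 FPKM in the KO anti-PD-1 tumours, against 0.0713, 0 and 0.195 FPKM in the WT PBS tumours and 0.237, 0.604 and 0.202 FPKM in the WT anti-PD-1 tumours. The groups did not overlap, 1 WT library was listed at 0, and the log2 difference of 1.49 (SE 0.22, limma adjusted p = 5.88e-04) is therefore understated.

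**Figure D3:**
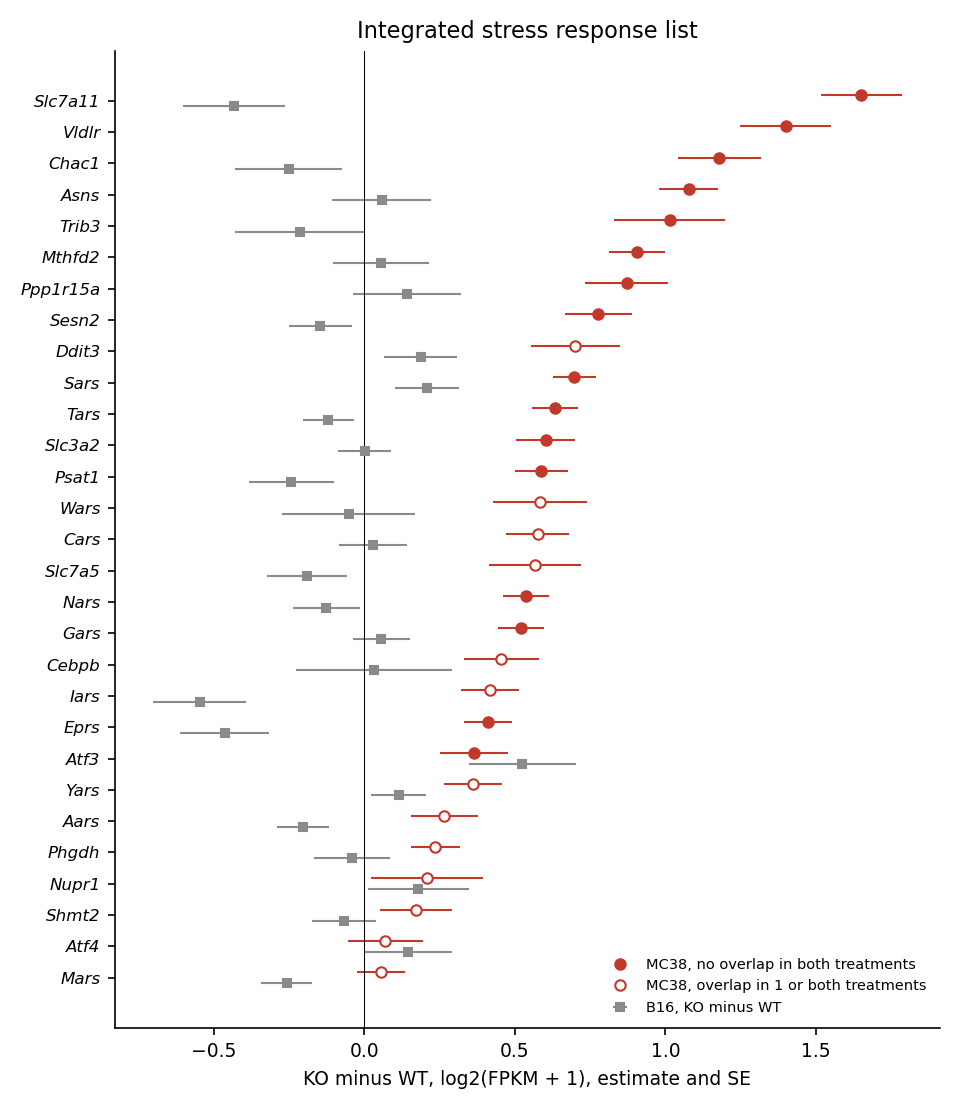
KO minus WT difference in log2(FPKM + 1) with its SE for the 29 tested members of the integrated stress response list, in MC38 (red circles, 6 KO and 6 WT libraries; filled where the groups do not overlap in both treatments) and in B16 (grey squares, 6 KO and 6 WT libraries). The MC38 estimates run from 0.056 to 1.65, and the B16 estimates lie on both sides of 0.

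In the B16 libraries, which the no overlap rule did not use, the same list gave no member called higher and 1 called lower of 28 tested. Over all B16 genes 2.75% were called higher and 6.48% lower, so these counts were near the B16 background. The list itself was chosen with earlier results of these data known. The median log2 difference of the list in B16 was -0.05. The MC38 difference exceeded the B16 difference by 2.09 (limma adjusted p = 8.40e-07) for Slc7a11, by 1.43 (limma adjusted p = 3.29e-05) for Chac1 and by 1.02 (limma adjusted p = 5.85e-04) for Asns in the fit of all 24 libraries. In all, the difference between the lines was called for 21 of the 29 members, against 32.3% of all genes tested in MC38. A list picked out for its MC38 difference favours such calls.

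Genes of redox defence, many of them targets of the factor NRF2, were called higher more often than lower. Of 24 tested, 11 were called higher (background 11.8%), 6 of them without overlap (background 7.02%), and 1 lower. Slc7a11 belongs to this list as well. Nqo1 (a quinone reductase) measured 4.55, 3.51 and 5.12 FPKM in the KO PBS tumours and 4.30, 4.23 and 3.94 FPKM in the KO anti-PD-1 tumours, against 2.24, 2.57 and 2.10 FPKM in the WT PBS tumours and 1.42, 1.57 and 1.79 FPKM in the WT anti-PD-1 tumours. All KO libraries were above all WT libraries, with a log2 difference of 0.85 (SE 0.09, limma adjusted p = 7.30e-05). Gclc, the catalytic subunit of the enzyme that limits glutathione synthesis, measured 14.9 to 17.9 FPKM in KO tumours and 10.6 to 12.7 FPKM in WT tumours, a log2 difference of 0.50 (SE 0.05, limma adjusted p = 9.57e-05). Gstm1, a glutathione transferase, differed by 0.87 (SE 0.09, limma adjusted p = 8.45e-05). Gstp1 and Gstp2, near-identical copies between which reads cannot be assigned with certainty, differed by 0.83 and 0.70. Hmox1, haem oxygenase, was called at 0.63 with 1 WT anti-PD-1 library inside the KO range. Ftl1, the ferritin light chain, was among the most abundant of the shared genes at 722 ± 56.7 FPKM in KO tumours and 483 ± 52.8 FPKM in WT tumours (SD, n = 6 each), and differed by 0.58 (SE 0.08, limma adjusted p = 4.21e-04); processed copies of this gene exist in the genome.

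Hypoxia and glycolysis genes had 9 called higher of 30 tested (background 11.8%), 4 of them without overlap (background 7.02%), and none called lower. Ero1l (an oxidase that forms disulphide bonds in the endoplasmic reticulum) measured 351, 367 and 347 FPKM in the KO PBS tumours and 269.5, 159 and 279 FPKM in the KO anti-PD-1 tumours, against 69.6, 71.5 and 105 FPKM in the WT PBS tumours and 80.04, 110.1 and 129.8 FPKM in the WT anti-PD-1 tumours. The lowest KO library exceeded the highest WT library. The log2 difference was 1.62 (SE 0.22, limma adjusted p = 3.29e-04), and it was 2.13 under PBS and 1.12 under anti-PD-1, an interaction that was not called. Ddit4 (REDD1, an inhibitor of mTORC1) measured 82.3, 92.5 and 101 FPKM in the KO PBS tumours and 86.7, 64.3 and 86.7 FPKM in the KO anti-PD-1 tumours, against 32.8, 29.2 and 30.2 FPKM in the WT PBS tumours and 34.4, 40.4 and 41.9 FPKM in the WT anti-PD-1 tumours. The groups were clear of each other at 1.27 (SE 0.12, limma adjusted p = 3.21e-05). Pfkp, the platelet-type phosphofructokinase, and Gapdh were higher without overlap at 0.91 and 0.45; Gapdh has many pseudogene copies. The list median was 0.22, with 0.43 under PBS and 0.03 under anti-PD-1. In B16 6 of 29 tested members were called higher (B16 background 2.75%) and none lower, with a median of 0.30. A rise of this list was therefore not particular to MC38. Vegfa, the endothelial growth factor, was not called at 0.31 (limma adjusted p = 0.19). Fam162a, a hypoxia-responsive mitochondrial protein, measured 159 to 236 FPKM in KO tumours and 90.5 to 134 FPKM in WT tumours, a log2 difference of 0.80 (SE 0.12, limma adjusted p = 6.31e-04).

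CHK2 acts on p53, and among p53 targets the called genes were mostly higher. Of 27 tested, 9 were called higher (background 11.8%), 6 of them without overlap (22.2%, background 7.02%). The 3 called lower (background 12%) and the 2 lower without overlap (background 7.30%) were near the share over all genes, and 5 were called lower without the second KO anti-PD-1 library. Cdkn1a (the cell cycle inhibitor p21) measured 26.8, 28.9 and 23.8 FPKM in the KO PBS tumours and 24.7, 23.1 and 31.7 FPKM in the KO anti-PD-1 tumours, against 10.3, 8.91 and 10.8 FPKM in the WT PBS tumours and 12.4, 15.7 and 15.4 FPKM in the WT anti-PD-1 tumours. All KO values were higher, with a log2 difference of 1.07 (SE 0.12, limma adjusted p = 8.45e-05). Gadd45a, a stress protein that both p53 and ATF4 are known to raise, measured 23.1 to 36.5 FPKM in KO tumours and 8.01 to 17.7 FPKM in WT tumours, a log2 difference of 1.30 (SE 0.18, limma adjusted p = 4.92e-04). Tigar, which lowers glycolytic flux, differed by 0.94 (SE 0.11, limma adjusted p = 1.28e-04), and Phlda3, an AKT inhibitor, by 0.66 (SE 0.11, limma adjusted p = 0.0012). The receptor gene Eda2r and Ckap2 fell, at -0.51 (SE 0.12, limma adjusted p = 0.0084) and -0.47 (SE 0.07, limma adjusted p = 4.40e-04). The list median was 0.11.

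Checkpoint, replication and repair genes were lower more often than higher among those called. In the E2F and replication list 8 of 28 were called lower (background 12%), 5 without overlap (17.9%, against 7.30% of all genes), and 2 higher. Without the second WT PBS, the first or second WT anti-PD-1 or the third KO anti-PD-1 library 5 were called lower. E2f1 (a transcription factor of S phase entry) measured 11.3, 12.9 and 11.2 FPKM in the KO PBS tumours and 11.3, 10.04 and 12.2 FPKM in the KO anti-PD-1 tumours, against 18, 19.7 and 21.7 FPKM in the WT PBS tumours and 18.9, 19.7 and 19.7 FPKM in the WT anti-PD-1 tumours. KO and WT ranges were separate and the log2 difference was -0.72 (SE 0.06, limma adjusted p = 2.01e-05). Gins1 and Gins2, subunits of the replicative helicase, differed by -0.75 (SE 0.08, limma adjusted p = 9.49e-05) and -0.53 (SE 0.07, limma adjusted p = 2.59e-04). Rrm2, the small subunit of ribonucleotide reductase, went the other way at 0.42 (SE 0.09, limma adjusted p = 0.006). Of 31 repair genes 6 were called lower (background 12%) and none higher, with a list median of -0.02. Without the second KO PBS library 3 were called lower. Without the first WT PBS, the first or second WT anti-PD-1 or the third KO anti-PD-1 library 4 were called lower. Such counts are near the share over all genes. Repair genes without overlap and called included Fanca, of the crosslink repair core complex, at -0.39 and the excision repair gene Xpa at -0.30. The mismatch repair gene Pms2 did not overlap but was not called, at -0.18 (limma adjusted p = 0.056). In the checkpoint list 4 of 23, with the targeted Chek2 among them, were called lower (background 12%) and 1 higher. Its median was -0.01, with 0.05 under PBS and -0.08 under anti-PD-1, and without 1 library 3 to 5 were called lower. Hus1, of the 9-1-1 clamp, was the one checkpoint gene besides Chek2 that was lower without overlap, at -0.34 (SE 0.05, limma adjusted p = 0.0011). Mitotic genes gave 6 of 25 called lower (background 12%) and none higher, but just 2 of 25 without overlap, near the background of 7.30%. Without 1 library 2 to 7 were called lower, with 2 or 3 without the second or the third KO PBS, the first or the second WT PBS or the first or the third WT anti-PD-1 library. Cdk1 was lower at -0.31 (SE 0.06, limma adjusted p = 0.0019).

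Secreted growth factors included several of the largest shared differences. Ostn (osteocrin, a hormone of bone and muscle) measured 15, 10.9 and 11.3 FPKM in the KO PBS tumours and 10.1, 10.5 and 12.3 FPKM in the KO anti-PD-1 tumours, against 0.361, 0.444 and 1.13 FPKM in the WT PBS tumours and 0.345, 0.684 and 0.258 FPKM in the WT anti-PD-1 tumours. Every KO library was far above every WT library and the log2 difference was 3.06 (SE 0.13, limma adjusted p = 2.59e-07), alike in both treatments at 3.04 under PBS and 3.07 under anti-PD-1. Ptn (pleiotrophin, a heparin-binding growth factor) measured 18.8, 20.01 and 11.3 FPKM in the KO PBS tumours and 21.9, 29.96 and 11.5 FPKM in the KO anti-PD-1 tumours, against 3.11, 2.57 and 3.19 FPKM in the WT PBS tumours and 3.72, 1.05 and 1.93 FPKM in the WT anti-PD-1 tumours. The lowest KO library was above the highest WT library, at 2.45 (SE 0.26, limma adjusted p = 7.30e-05). Areg (amphiregulin, an EGF receptor ligand) measured 4.98, 6.51 and 4.33 FPKM in the KO PBS tumours and 3.40, 11.2 and 7.11 FPKM in the KO anti-PD-1 tumours, against 0.795, 0.706 and 0.153 FPKM in the WT PBS tumours and 1.64, 0.576 and 0.0533 FPKM in the WT anti-PD-1 tumours. KO libraries spread widely but did not overlap WT, at 2.12 (SE 0.26, limma adjusted p = 2.14e-04). Ereg, epiregulin, a second ligand of the same receptor that lies beside Areg on chromosome 5, measured 6.31 to 10.4 FPKM in KO tumours and 2.21 to 3.29 FPKM in WT tumours, at 1.27 (SE 0.09, limma adjusted p = 7.11e-06). In the other direction, Fgf7 (keratinocyte growth factor) measured 9.15, 8.26 and 5.99 FPKM in the KO PBS tumours and 9.34, 9.60 and 12.1 FPKM in the KO anti-PD-1 tumours, against 25.3, 36.7 and 28.8 FPKM in the WT PBS tumours and 37.5, 36 and 30.4 FPKM in the WT anti-PD-1 tumours. No library overlapped and the log2 difference was -1.74 (SE 0.12, limma adjusted p = 3.66e-06). Vegfd, a lymphatic growth factor, fell by 0.82 on the log2 scale and Fgfr1 by 0.39. Of 27 tested members, 6 were called higher (background 11.8%) and 9 lower (background 12%), with 5 higher (background 7.02%) and 3 lower (background 7.30%) without overlap.

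In the TGF-beta and BMP list 9 of 36 were called higher (background 11.8%) and 6 lower (background 12%). Without overlap were 8 higher (22.2%, background 7.02%) and 3 lower (8.3%, background 7.30%). Bmp5 (a BMP ligand) measured 9.97, 9.21 and 7.76 FPKM in the KO PBS tumours and 9.04, 6.82 and 4.91 FPKM in the KO anti-PD-1 tumours, against 0.270, 0.158 and 0.632 FPKM in the WT PBS tumours and 0.582, 0.351 and 0.192 FPKM in the WT anti-PD-1 tumours. WT libraries were all under 1 FPKM and KO libraries all above 4, at 2.70 (SE 0.15, limma adjusted p = 1.09e-06). Tgfb2, a TGF-beta ligand, measured 1.38 to 2.79 FPKM in KO tumours and 0.262 to 0.638 FPKM in WT tumours, at 1.00 (SE 0.08, limma adjusted p = 1.87e-05). Id1, a target of BMP signalling, differed by 0.95 (SE 0.13, limma adjusted p = 4.39e-04). Tgfbr3, the co-receptor betaglycan, and Ltbp1, which holds latent TGF-beta in the matrix, were lower at -0.96 (SE 0.09, limma adjusted p = 2.86e-05) and -0.91 (SE 0.12, limma adjusted p = 3.09e-04).

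Matrix proteases divided. Mmp10 (stromelysin 2) measured 22.1, 21.5 and 7.49 FPKM in the KO PBS tumours and 12.3, 7.09 and 8.64 FPKM in the KO anti-PD-1 tumours, against 1.02, 0.333 and 0.958 FPKM in the WT PBS tumours and 0.527, 0.506 and 0.389 FPKM in the WT anti-PD-1 tumours. KO and WT were clear of each other, at 3.01 (SE 0.24, limma adjusted p = 1.44e-05). Adamts12 and Timp1 were higher at 1.08 and 0.44, of which Timp1 was not called when all 24 libraries were fitted together. Mmp9, gelatinase B, measured 5.66 to 15.8 FPKM in KO tumours and 11.2 to 24.7 FPKM in WT tumours, with overlap across treatments but none within either, at -0.92 (SE 0.17, limma adjusted p = 0.0029). Adamts14, which trims procollagen, differed by -0.91 (SE 0.06, limma adjusted p = 2.85e-06), and the inhibitor Timp2 by -0.61 (SE 0.06, limma adjusted p = 5.88e-05). Of 25 tested, 5 were called higher (background 11.8%) and 6 lower (background 12%), with 4 higher and 5 lower without overlap (background 7.02% and 7.30%).

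Wnt and guidance signals included several of the lower genes. Wnt5a (a non-canonical Wnt ligand) measured 5.07, 8.73 and 7.91 FPKM in the KO PBS tumours and 3.33, 3.79 and 3.62 FPKM in the KO anti-PD-1 tumours, against 16.4, 15.9 and 16.2 FPKM in the WT PBS tumours and 16.5, 16.2 and 17.6 FPKM in the WT anti-PD-1 tumours. WT libraries were nearly constant and KO libraries lower in both treatments. The log2 difference was -1.52 (SE 0.16, limma adjusted p = 7.07e-05), with -1.09 under PBS and -1.95 under anti-PD-1 and a called interaction of -0.87 (limma adjusted p = 0.048). Ror1, a Wnt5a receptor, was lower at -0.82 (SE 0.12, limma adjusted p = 4.51e-04) and Dkk2, a secreted Wnt antagonist, at -1.31 (SE 0.10, limma adjusted p = 8.45e-06). Ntn1, the guidance cue netrin 1, measured 3.21 to 4.79 FPKM in KO tumours and 11.1 to 13.9 FPKM in WT tumours, one of the most uniform differences at -1.40 (SE 0.07, limma adjusted p = 6.82e-07). Over the 23 tested Wnt genes the median was 0.01, so these 3 members did not stand for the list. Nor did Ntn1 stand for the 42 tested guidance genes, of which 8 were called higher (background 11.8%) and 4 lower (background 12%). Without overlap were 5 higher (background 7.02%) and 4 lower (background 7.30%) guidance genes, and their list median was 0.06.

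Grb10 (an imprinted adaptor that restrains insulin and IGF receptors) measured 1.25, 0.639 and 0.639 FPKM in the KO PBS tumours and 1.39, 4.05 and 1.72 FPKM in the KO anti-PD-1 tumours, against 13.9, 16.8 and 17.5 FPKM in the WT PBS tumours and 16.3, 17 and 17 FPKM in the WT anti-PD-1 tumours. The highest KO library was below the lowest WT library. The log2 difference of -2.85 (SE 0.19, limma adjusted p = 4.17e-06) was the largest fall among the shared protein-coding genes. H19, an imprinted long noncoding RNA, measured 71.2 to 119 FPKM in KO tumours and 119.8 to 412 FPKM in WT tumours, at -1.36 (SE 0.17, limma adjusted p = 2.59e-04). Igf2, its neighbour at the same imprinted locus, was under 1 FPKM in every KO library. Igf2 measured 0.0102, 0.0152 and 0.0191 FPKM in the KO PBS tumours and 0.00583, 0.999 and 0.0428 FPKM in the KO anti-PD-1 tumours, against 5.64, 5.41 and 14.1 FPKM in the WT PBS tumours and 1.16, 0.0611 and 1.29 FPKM in the WT anti-PD-1 tumours. The KO and WT anti-PD-1 libraries overlapped, so Igf2 was not among the shared genes. Its log2 difference was -1.76 (SE 0.47, limma adjusted p = 0.018), with -3.09 under PBS and -0.44 under anti-PD-1 and a called interaction of 2.65 (limma adjusted p = 0.039). Insr, the insulin receptor, was lower by a small amount without overlap at -0.20 (SE 0.05, limma adjusted p = 0.017), and was not called when all 24 libraries were fitted together. Of 24 tested IGF and imprinted growth genes, 2 were called higher (background 11.8%) and 6 lower (background 12%). Without overlap were none higher (background 7.02%) and 3 lower (background 7.30%). The list median was 0.13, with 0.04 under PBS and 0.17 under anti-PD-1, so the falls named here did not stand for the list.

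Genes known from muscle and skin were among the largest rises. Tnnt2, cardiac troponin T, measured 12.7 to 18.1 FPKM in KO tumours and 1.35 to 3.68 FPKM in WT tumours, at 2.31 (SE 0.15, limma adjusted p = 3.34e-06). Cox6a2, the muscle form of a cytochrome oxidase subunit, measured 82.3 to 100 FPKM in KO tumours and 14.4 to 28.4 FPKM in WT tumours, at 2.00 (SE 0.16, limma adjusted p = 1.48e-05). The 14 gene skeletal muscle list was on both sides, with a summed level of 3.55 to 639 FPKM in KO and 3.48 to 428 FPKM in WT libraries, and none of its 12 tested members was called. Krt14 (a basal keratin) measured 27.7, 19.9 and 15.5 FPKM in the KO PBS tumours and 34.9, 37 and 24.9 FPKM in the KO anti-PD-1 tumours, against 3.51, 3.19 and 4.19 FPKM in the WT PBS tumours and 12.5, 6.05 and 5.65 FPKM in the WT anti-PD-1 tumours. KO exceeded WT in both treatments at 2.08 (SE 0.19, limma adjusted p = 3.29e-05). Of the 11 gene keratinocyte list that holds Krt14, 2 members passed the filter, and its sum was 18.4 to 43.2 FPKM in KO and 5.78 to 36.5 FPKM in WT libraries. Krt1, Krt15 and Krtdap were under 1 FPKM in every KO library, while the first WT anti-PD-1 library alone held Krtdap at 6.36 FPKM. Cdsn, corneodesmosin, measured 4.00 to 7.05 FPKM in KO tumours and 0.201 to 0.980 FPKM in WT tumours, at 1.98 (SE 0.14, limma adjusted p = 5.15e-06). In bulk tissue fewer cells of a type and less RNA per cell cannot be told apart, and the part of muscle or skin cells in these values was not tested beyond these sums.

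Several genes were close to silent in 1 genotype. Taf7l, an X-linked paralogue of a TFIID subunit used in germ cells and adipocytes, measured 3.30 to 4.90 FPKM in KO tumours and 0.209 to 0.575 FPKM in WT tumours, at 1.77 (SE 0.10, limma adjusted p = 1.09e-06). Dlx2, a homeobox factor, and Car14, a carbonic anhydrase, measured 1.00 to 1.45 FPKM in KO tumours and 0 to 0.190 FPKM in WT tumours and 0.609 to 1.99 FPKM in KO tumours and 0 to 0.0505 FPKM in WT tumours. Vmn2r96, a vomeronasal receptor of a large gene family, was near 1 FPKM in KO, at 0.949 to 1.35 FPKM in KO tumours and 0.0142 to 0.0478 FPKM in WT tumours. Soat2, which esterifies cholesterol, was low but not near silent in WT. It measured 7.37 to 10.5 FPKM in KO tumours and 1.03 to 2.41 FPKM in WT tumours, at 1.99 (SE 0.13, limma adjusted p = 2.90e-06). Cholesterol synthesis genes as a list did not follow, with 2 of 20 called higher (background 11.8%), 2 lower (background 12%, and 6 without the third WT PBS library) and a median of -0.04. Near silent in KO were Trim43b, at 0.0352 to 0.148 FPKM in KO tumours and 1.18 to 2.20 FPKM in WT tumours, Raet1e, a stress ligand of the NKG2D receptor, at 0.154 to 0.591 FPKM in KO tumours and 1.94 to 3.18 FPKM in WT tumours, and Reep1, of the endoplasmic reticulum, at 0.132 to 0.644 FPKM in KO tumours and 1.67 to 2.29 FPKM in WT tumours. Their log2 differences were -1.29 (SE 0.10, limma adjusted p = 1.49e-05), -1.36 (SE 0.11, limma adjusted p = 1.49e-05) and -1.12 (SE 0.08, limma adjusted p = 8.59e-06).

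On the X chromosome, Xlr5a and Xlr5b, 2 members of a lymphocyte-regulated family with near-identical copies, were lower without overlap at -1.51 (SE 0.20, limma adjusted p = 2.85e-04) and -1.54 (SE 0.24, limma adjusted p = 8.24e-04). The pseudogenes Xlr5e-ps and Xlr5d-ps, named after their values were seen, were lower at -2.73 and -2.26, and reads could not be assigned among these copies with certainty. The rise that exceeded Ostn was in an uncharacterised transcript, Gm43366, at 3.64 on the log2 scale. It lies on chromosome 5 beside a second one, 1600023N17Rik, at 2.60; both were also named after their values were seen.

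**Figure D4:**
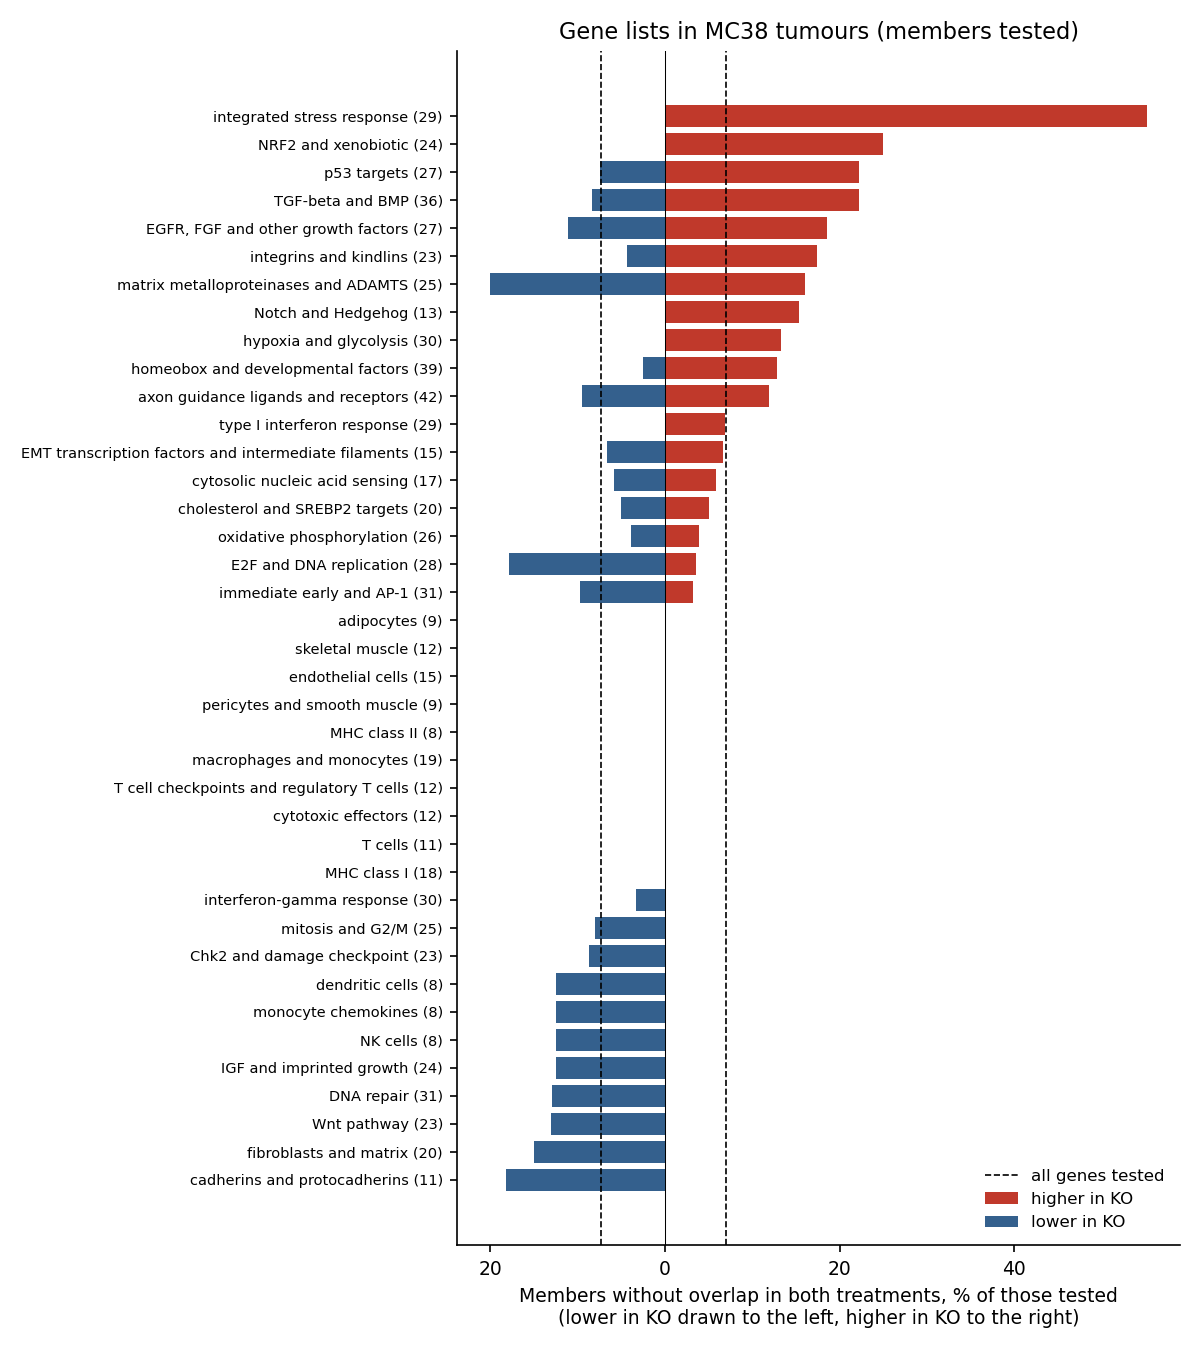
Share of the tested members of each gene list (number tested in brackets, lists with at least 8) without overlap in both treatments, higher in KO drawn to the right in red and lower in KO to the left in blue; dashed lines mark 7.02% and 7.30%, the shares over all 14209 genes. The integrated stress response list reaches farthest to the right, and T cell, cytotoxic and MHC lists have no bar.

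Some stromal genes and the chemokine gene Ccl2 were among the abundant falls. Ccl2 (a chemokine that draws monocytes) measured 70.8, 68.5 and 50.9 FPKM in the KO PBS tumours and 81, 89.2 and 86.5 FPKM in the KO anti-PD-1 tumours, against 228, 239 and 211 FPKM in the WT PBS tumours and 287, 202 and 250.4 FPKM in the WT anti-PD-1 tumours. KO libraries were all below 100 FPKM and WT libraries all above 200. The log2 difference was -1.67 (SE 0.11, limma adjusted p = 3.04e-06). Of 8 monocyte chemokine genes tested, 3 were called lower (background 12%) and none higher. Ccl2 was the 1 member lower without overlap (background 7.30%). The list median was -0.18, with -0.54 under PBS and 0.04 under anti-PD-1, so Ccl2 did not stand for the list. Dcn (decorin, a matrix proteoglycan of fibroblasts) measured 52.8, 59.1 and 47.6 FPKM in the KO PBS tumours and 41.3, 97.3 and 48.6 FPKM in the KO anti-PD-1 tumours, against 214, 266 and 210.2 FPKM in the WT PBS tumours and 175, 127 and 222 FPKM in the WT anti-PD-1 tumours. The groups did not overlap, although the second KO anti-PD-1 library was the nearest to WT, and the log2 difference was -1.81 (SE 0.21, limma adjusted p = 1.32e-04). Col6a1 and Col6a2, chains of collagen VI, were lower at -1.02 (SE 0.14, limma adjusted p = 3.27e-04) and -0.77 (SE 0.15, limma adjusted p = 0.003). The fibroblast and matrix list as a whole gave 5 of 20 called lower (background 12%) and none higher, with a median of -0.03. Its summed level was 1225 to 2008 FPKM in KO and 1361 to 2185 FPKM in WT libraries. Anxa1, annexin A1, and Gng11, a G protein subunit, were among the most abundant falls, at 161 ± 11.9 FPKM in KO tumours and 261 ± 33.1 FPKM in WT tumours for Anxa1 and 173 ± 57.7 FPKM in KO tumours and 296 ± 47.4 FPKM in WT tumours for Gng11 (SD, n = 6 each). Their log2 differences were -0.69 (SE 0.08, limma adjusted p = 1.45e-04) and -0.82 (SE 0.11, limma adjusted p = 4.61e-04).

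Lymphocyte genes showed almost no shared difference. None of 11 T cell, 12 cytotoxic, 12 T cell checkpoint or 8 MHC class II genes tested was without overlap in the same direction in both treatments. Over all genes tested the share was 14.3%. Nor was any of 19 macrophage and monocyte or 15 endothelial genes tested, so this was not particular to lymphocyte genes. The summed T cell list was 5.31 to 8.71 FPKM in KO PBS and 38.1 to 53.6 FPKM in KO anti-PD-1 libraries, against 30.9 to 50.2 FPKM in WT PBS and 37.5 to 45.6 FPKM in WT anti-PD-1 libraries. The covariate fit called 4 T cell and 8 cytotoxic genes lower (background 12%), with medians of -0.57 and -0.90. But these averages came from the PBS arm, where the medians were -1.24 and -1.65, against 0.08 and -0.09 under anti-PD-1. The interaction was called for 5 T cell and 8 cytotoxic genes (background 2.44%). Without 1 library the covariate fit called 1 to 8 T cell and 4 to 11 cytotoxic genes lower. Without any 1 of the 6 PBS libraries it called 1 or 2 T cell and 4 or 5 cytotoxic genes lower, and without the second KO anti-PD-1 library 8 T cell genes. A few immune genes were lower in both treatments all the same. Gzmc, a granzyme of killer cells, measured 6.14 to 21 FPKM in KO tumours and 21.4 to 97.7 FPKM in WT tumours, at -1.77 (SE 0.33, limma adjusted p = 0.0025). Klra4, a receptor of NK cells, measured 63.2 to 85.9 FPKM in KO tumours and 91.5 to 164 FPKM in WT tumours, at -0.71 (SE 0.09, limma adjusted p = 2.03e-04), while the NK gene Ncr1 was under 3 FPKM in every library. Psmb10, a subunit of the immunoproteasome, differed by -0.74 (SE 0.09, limma adjusted p = 2.01e-04), and was not called when all 24 libraries were fitted together.

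The shared genes were unevenly spread over the genome. On chromosome 3, 16.2% of 686 tested genes were higher without overlap and 3.21% lower, and on chromosome 6, 14.4% and 3.91% of 742. Chromosome 12 had 12.1% higher and 3.27% lower. The reverse held on chromosome 8, with 2.33% higher and 19% lower of 731, on the X chromosome, with 3.59% and 18.4% of 474, and on chromosome 10, with 2.87% and 13.9% of 661. The median log2 difference was 0.10 on chromosome 3 and -0.12 on chromosome 8. It was alike in the 2 treatments, at 0.11 under PBS and 0.12 under anti-PD-1 on chromosome 3 and at -0.09 and -0.16 on chromosome 8. In windows of 10 Mb the split was sharper. Between 30 and 40 Mb of chromosome 16, 32 of 84 tested genes were higher without overlap and none lower, with 72 of the 84 estimates above 0. Between 80 and 90 Mb of chromosome 6 it was 24 of 87 and none lower. Between 110 and 120 Mb of chromosome 8 no gene of 54 was higher and 15 were lower, and between 90 and 100 Mb of the X chromosome none of 25 was higher and 9 were lower. In B16, where 1.90% of all genes were higher without overlap in both treatments and 4.81% lower, 1 of 72 genes of the chromosome 16 window was higher in that way and 2 were lower. Not every window differed so between the lines. Between 150 and 160 Mb of chromosome 2, 36 of 129 genes were lower and 4 higher in MC38. In B16 17 of 120 genes of that chromosome 2 window were lower and none higher. Of the genes named above, Fam162a lies in the chromosome 16 window and Mthfd2 in the chromosome 6 window. Asns, Gars and Gadd45a lie elsewhere on chromosome 6, in windows with 2, 4 and 1 higher and 2, 5 and 3 lower genes without overlap, and Ostn lies in a chromosome 16 window with 3 higher and 6 lower. Slc7a11 lies between 50 and 60 Mb of chromosome 3, with 12 of 48 genes higher and 1 lower. Sars lies between 100 and 110 Mb of it, with 17 of 88 higher and 2 lower. Tars lies between 10 and 20 Mb of chromosome 15, with 5 of 20 higher and none lower. Trib3, itself higher, lies in the chromosome 2 window with mostly lower genes. Windows of the other named genes are not given here. The windows described first were chosen for their shares and the others for the genes in them, so no test is attached. DNA copy number was not measured.

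**Figure D5:**
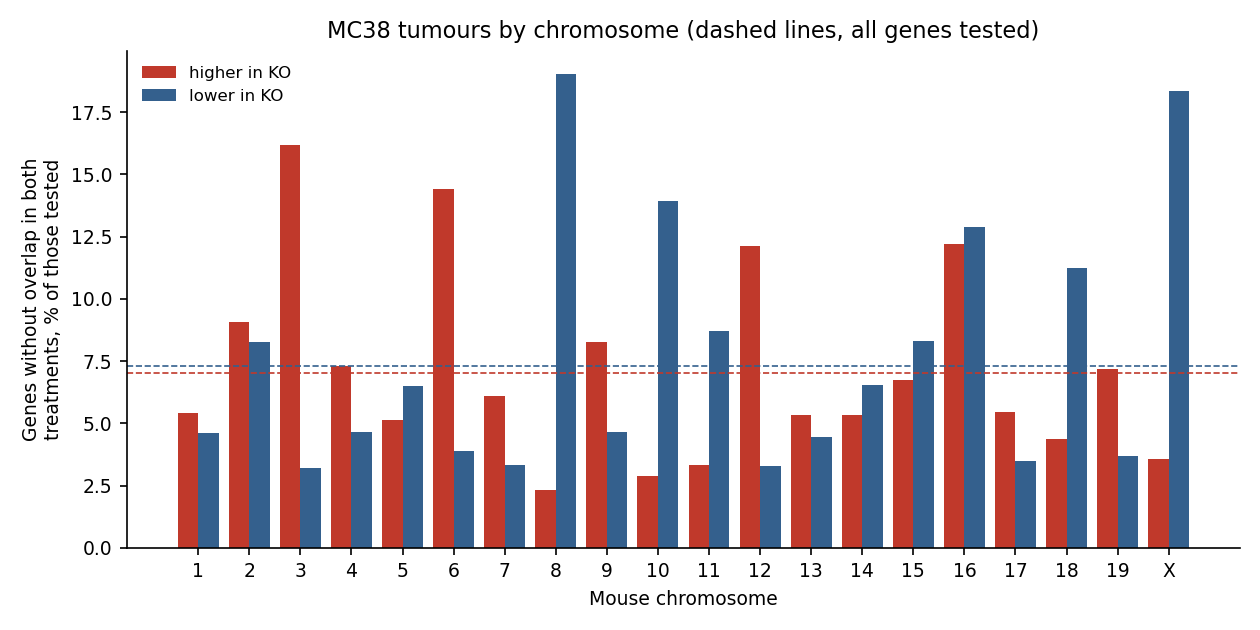
Share of tested genes on each mouse chromosome that were higher (red) or lower (blue) in KO than in WT MC38 tumours without overlap in both treatments; dashed lines give the shares over all genes tested, 7.02% and 7.30%. Red exceeds blue on chromosomes 3, 6 and 12, and blue exceeds red on chromosomes 8, 10 and X.

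At the limit of the no overlap rule, Ppp1r13b, a partner of p53, was just inside at 2.63 to 3.83 FPKM in KO tumours and 2.32 to 2.70 FPKM in WT tumours, and Ubtd2 at 13.5 to 16.5 FPKM in KO tumours and 16.5 to 18.9 FPKM in WT tumours. Just outside were Eif3i, at 44.8 to 50.2 FPKM in KO tumours and 37.1 to 44.9 FPKM in WT tumours, and Ccs, at 7.05 to 9.12 FPKM in KO tumours and 8.30 to 11.3 FPKM in WT tumours, both called. The filter on low values kept 328 genes seen at 1 FPKM or more in exactly 3 libraries and left out 491 seen in exactly 2, so a gene that was high in 1 group of 3 could enter through that group alone.

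The B16 libraries gave the same comparison in tumours of another line. There 1258 of 13627 genes (9.23%) were called, 375 higher (2.75%) and 883 lower (6.48%), a count that ranged from 170 without the third B16 WT anti-PD-1 library to 1895 without the third B16 KO PBS library. Of the MC38 genes higher without overlap 849 were tested in B16, and 28 (3.30%) were called higher and 65 (7.66%) lower. Of those lower without overlap 899 were tested, and 76 (8.45%) were called lower and 20 (2.22%) higher. On the values as deposited these 4 shares lie within 2 percentage points of the B16 background, which depends on scaling. FPKM summed to 398474, 392385 and 375193 in the B16 KO anti-PD-1 libraries, against 319980 to 344059 in the other B16 libraries. This offset falls wholly in 1 KO group, and its cause was not tested. With median-ratio scale factors B16 gave 516 higher and 462 lower calls, and the MC38 higher genes were called higher in 4.6% and lower in 3.90%, against 3.80% and 3.40% of all B16 genes. On rescaled protein-coding genes the MC38 higher genes were called lower in B16 in 25.3% and the MC38 lower genes in 23.5%, against 21.8% of all. The MC38 minus B16 difference was called for 1399 of the 2035 genes (68.7%), against 32.3% of all genes tested in MC38. The choice of genes by their MC38 difference favours the first share. Genes called in the same direction in both lines included Chek2, at -0.80 in MC38 and -0.34 (limma adjusted p = 0.02) in B16, and Cdkn1a, at 1.07 in MC38 and 0.66 (limma adjusted p = 0.0085) in B16. Gadd45a and Gstm1 were also called higher in B16, at 0.55 (limma adjusted p = 0.028) and 0.41 (limma adjusted p = 0.044). Anxa1 went the other way, at -0.69 in MC38 and 0.34 (limma adjusted p = 0.04) in B16.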

How the data were processed

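Total RNA of tumour tissue was taken with Trizol and sequenced from standard Illumina libraries, per the labels' protocols. FastQC, STAR 2.5, Cuffnorm, DESeq and mm10 are named in the submitters' processing notes without saying which made the values. The deposited values, 1 column per library for 55335 Ensembl mouse genes, were taken as FPKM computed by the authors, from their scale, unequal sums and decimals. Strand and filters are not given in the sources used here. Low values were whole multiples of the amount of 1 read in 31.4% to 36.2% of cases (within 0.02), and counts were therefore not recovered. At most 0.03% of nonzero values were identical between any pair of libraries.

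Symbols and positions came from GENCODE M21, which matched 55154 gene IDs and left 181 without a symbol. Groups came from the labels' condition field. Differences were fitted on log2(FPKM + 1) with limma 3.58.1 in R 4.3.3, with treatment as a covariate, a mean-variance trend and Benjamini-Hochberg adjustment, two-sided, over genes that reached 1 FPKM in 3 or more of 12 libraries. Interaction, B16 and line differences were fitted likewise. The fit was tested on simulated data. Named genes were Chek2, the 15 largest rises and falls, up to 3 per list, the widest gaps, the most abundant and those nearest the no overlap limit, among called protein-coding genes without overlap. Further list members, Igf2, the Xlr5 pseudogenes and the 2 uncharacterised transcripts were named after their values were seen. The genes, the 47 gene lists and the tests were chosen with earlier results of these data known. List counts under other scalings and without single libraries, and B16 counts under other scalings, were added after seeing the data. Promoters came from the RefSeq table for GRCm38.p6. Some genes that met the naming rule are not reported here.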

Additional observations from a re-analysis of the deposited data

Results flagged for a closer look

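Of 108 genes named in the text, 77 passed the filter in both tumour lines, and for 56 the KO minus WT difference in MC38 differed from that in B16 at a limma adjusted p under 0.05 in the fit of all 24 libraries. Since the genes were chosen for a large difference in MC38, such a line difference is favoured by the choice. Among integrated stress response genes the MC38 minus B16 difference, on the log2 scale, was 2.09 for Slc7a11, 1.43 for Chac1, 1.23 for Trib3, 1.02 for Asns, 0.97 for Iars, 0.92 for Sesn2, 0.88 for Eprs, 0.85 for Mthfd2, 0.83 for Psat1 and 0.76 for Slc7a5. It was 0.75 for Tars, 0.73 for Ppp1r15a, 0.66 for Nars, 0.60 for Slc3a2, 0.55 for Cars, 0.51 for Ddit3, 0.49 for Sars, 0.47 for Aars, 0.46 for Gars and 0.31 for Mars. Among the other genes with a positive line difference it was 2.07 for Cdsn, 1.90 for Tnnt2, 1.42 for Adamts12, 1.34 for Ero1l, 1.26 for Car14, 1.10 for Pfkp, 1.02 for Tigar, 0.96 for Ddit4 and 0.92 for Nqo1. Smaller positive values were 0.75 for Gadd45a, 0.58 for Gstp1, 0.52 for Gstp2, 0.49 for Gclc, 0.46 for Gstm1, 0.41 for Cdkn1a, 0.37 for Ppp1r13b and 0.24 for Eif3i. The negative line differences were -2.85 for Grb10, -2.55 for Ccl2, -2.45 for Gzmc, -2.01 for H19, -1.62 for Dcn, -1.36 for Psmb10, -1.28 for Gng11, -1.12 for Col6a1, -1.03 for Anxa1 and -0.97 for Tgfbr3. Nearer to 0 were -0.95 for Col6a2, -0.90 for Gins1, -0.67 for Timp2, -0.67 for E2f1, -0.66 for Xpa, -0.58 for Gins2, -0.52 for Fgfr1, -0.46 for Chek2 and -0.33 for Ckap2. Within MC38 the KO difference under anti-PD-1 minus that under PBS was called for 4 named genes, at 2.65 for Igf2, -0.59 for Phlda3, -0.86 for Tnnt2 and -0.87 for Wnt5a. For Tnnt2 and Phlda3 the KO excess was smaller under anti-PD-1, and for Wnt5a the KO deficit was larger there. No cause of these differences was tested.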

How the results depend on the processing

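The 3370 genes called with treatment as a covariate became 2664 to 3412 without any 1 library, and the other 10 alternatives left the count within 1.5-fold. The 2035 genes without overlap became 2179 to 2602 without 1 library. That rise follows from the rule, which is easier to meet with fewer libraries, so it does not measure stability. The integrated stress response count of 23 called members became 22 to 24. Of 151 genes followed through 22 alternatives, 146 were called and 135 of these stayed called under every one; Adar, Insr, Isg15, Isg20, Psmb10, Timp1 and Ubtd2 were not called when all 24 libraries were fitted together, and Igf2 and Slc7a5 with no filter on low values (limma adjusted p = 0.051 and 0.053). Zbtb46 lost its call in 11 of 22 alternatives and Ncr1 in 9 of 21. Without 1 library, the estimates of Atf4 and Mars, never called, ran from -0.019 to 0.152 and from -0.00326 to 0.0902; they turned negative for Atf4 without the first KO anti-PD-1 or the first WT anti-PD-1 library (-0.00729) and for Mars without the third KO PBS library. The interaction count of 346 was 45 with no filter on low values, where 33977 genes were tested, and 48 to 725 without 1 library. The B16 count of 1258 was 384 with no filter, 813 after quantile normalization (369 higher, 444 lower), 2622 on rescaled protein-coding genes (194 higher, 2428 lower), and 170 to 1895 without 1 library. The median B16 difference was -0.051 as deposited and -0.157 on rescaled protein-coding genes. The 4898 line differences were 3087 higher and 1811 lower as deposited, 2265 and 2587 with median-ratio factors, and 3964 and 872 on rescaled protein-coding genes. The median line difference was 0.048 as deposited, -0.0298 with median-ratio factors and 0.159 on rescaled protein-coding genes. In MC38 the median stayed between -0.0078 and 0.013 under every scaling. The causes were not tested.

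No paired analysis was possible because the labels carry no replicate numbers, and numbers given in accession order do not pair libraries. With 3 libraries per group and no read counts, differences in genes near 1 FPKM are the least certain, and the estimated depth gives no interval for single values.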
